A study of Mus musculus with 40 samples.

Results

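The TAM receptors are the receptor tyrosine kinases Tyro3, Axl and Mertk, and their ligands are the secreted proteins Gas6 and Pros1. These 5 genes were chosen by name, and all 5 were found in the table of 43346 genes from mouse cortex. All 5 were among the 21253 genes tested, which had at least 10 counts in at least 4 of 40 libraries. *Tyro3* (ENSMUSG00000027298) lies on chromosome 2 from 119797733 to 119818104 of mm10 and *Mertk* (ENSMUSG00000014361) on chromosome 2 from 128698956 to 128802894, both on the plus strand. *Axl* (ENSMUSG00000002602) lies on the minus strand of chromosome 7 from 25757273 to 25788705. *Gas6* (ENSMUSG00000031451) lies on the minus strand of chromosome 8 from 13465374 to 13494535, and *Pros1* (ENSMUSG00000022912) on the plus strand of chromosome 16 from 62854307 to 62929346. All 5 are annotated as protein coding genes.

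The study asked what the *Trem2* H157Y mutation, placed in the mouse gene by CRISPR, does in the brain with and without amyloid. Cortical RNA was sequenced from 40 mice, each its own library, in 4 groups of 10 with 5 females and 5 males. The non-amyloid cohort was 6 months old and held mice with the unmodified gene (WT) and mice homozygous for the mutation (Hom). The amyloid cohort was 8.5 months old, held the same genotypes, and carried the 5xFAD transgenes, driven in neurons by the *Thy1* promoter. No group received a treatment. Age and transgenes change together between the cohorts, so their parts in a difference between cohorts cannot be told apart. *Trem2* counts do not separate the alleles, so they did not check the genotype labels. *Xist* and *Ddx3y* matched the sex labels of all 40 libraries. *Xist* was at least 278 CPM in females and at most 0.413 CPM in males, and *Ddx3y* was at most 3.04 CPM in females and at least 67.9 CPM in males.

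Total counts per library ranged from 41646271 to 105903846, with a median of 77193387. Levels are given as CPM, a gene's counts scaled to the size of its library after TMM scaling, and each mean stands with its SD over 10 mice. One library stood apart from the rest, amyloid Hom replicate 19, a female with the lowest total of the 40. For 139 genes, 50% or more of the exonic sequence lies under a gene of the opposite strand that is 10 or more times as abundant. On these genes replicate 19 held 0.299% of its counts. The other 39 libraries held between 0.0141% and 0.0186% there. For the 5 genes, the log2 differences that include this library are given with and without it. Alternative fits, levels, correlations, counts of calls and list medians include it unless said. In the GENCODE vM21 annotation *Gas6* shares 34 exonic bases (1.33% of its exons) with the opposite-strand gene *Tmem255b*, which had a median of 0.710 CPM. The other 4 genes share no exonic base with another gene there.

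TAM receptors do not bind dying cells directly. Gas6 and Pros1, both vitamin K-dependent proteins, attach at one end to phosphatidylserine on the outer face of dying cells or cell debris and at the other end to the receptor, which starts engulfment and dampens inflammatory signalling. In the brain, Mertk and Axl are known as receptors of microglia, with Mertk also in astrocytes and Axl raised in reactive microglia, whereas Tyro3 is known mainly from neurons. Shedding by metalloproteases releases the receptors' outer domains.

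Levels were first set side by side per kilobase of exon, since only that scale allows genes to be compared. Over the 40 libraries *Tyro3* was at 33.3 ± 4.45 CPM per kb, *Gas6* at 24.1 ± 3.55, *Mertk* at 12.4 ± 2.11, *Axl* at 10.98 ± 2.45 and *Pros1* at 5.03 ± 1.69 CPM per kb (SD, n = 40). *Tyro3* was above the other 4 genes on this scale in all 40 libraries, and *Pros1* was below them in all 40. *Gas6* exceeded *Mertk* in 39 libraries. The exception was an amyloid WT library. *Mertk* and *Axl* were neighbours whose ranges overlapped. *Mertk* was the higher of the pair in 9 of 10 non-amyloid WT and 10 of 10 non-amyloid Hom libraries, but in only 4 of 10 amyloid WT and 6 of 10 amyloid Hom libraries. The raw counts behind these levels ranged from 802 (*Pros1*) to 24200 (*Tyro3*) in a library.

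**Figure D1:**
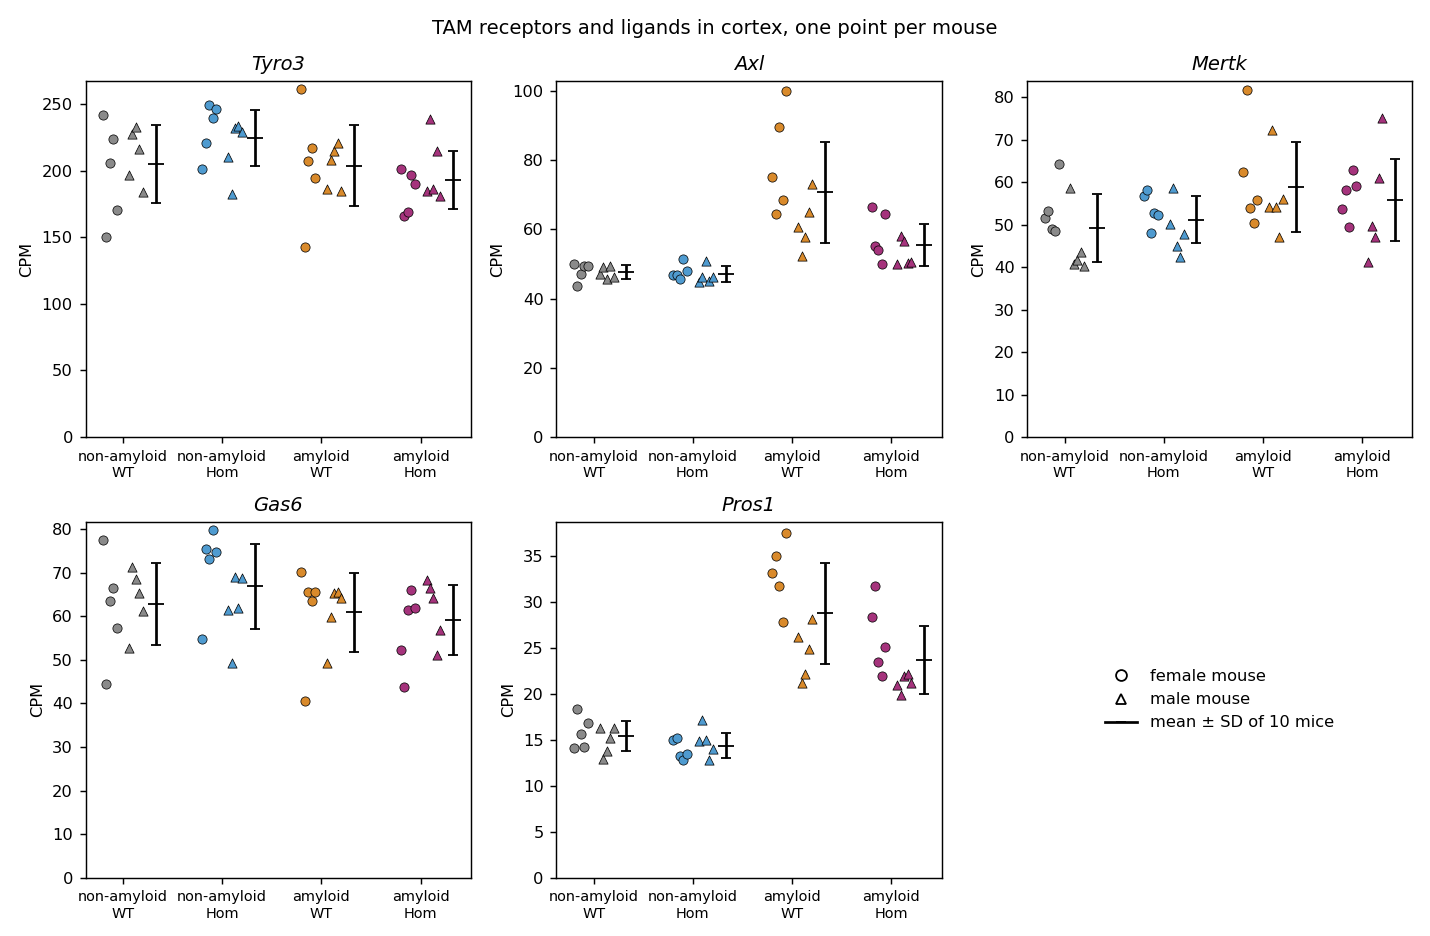
Level of each gene in CPM (vertical axes, starting at 0) for each of 40 mice by group; circles are females, triangles are males, and the bar beside each group is the mean ± SD of 10 mice. Every amyloid mouse lies above every non-amyloid mouse for *Pros1* (lowest amyloid value 19.9 CPM, highest non-amyloid value 18.4 CPM), and *Axl* in amyloid WT mice reaches 99.98 CPM.

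*Axl* was called between the cohorts in WT mice and not in Hom mice, and no test compared it with the other receptors. In non-amyloid WT mice it ranged from 43.7 to 50.1 CPM with a median of 48.1, and in amyloid WT mice from 52.4 to 99.98 CPM with a median of 66.7. All 10 amyloid WT mice were thus above all 10 non-amyloid WT mice, as in 415 of the 21253 genes tested (1.95%). The SD was 2.06 CPM in the non-amyloid and 14.6 CPM in the amyloid group. The highest values, 99.98 CPM in replicate 32, 89.6 in replicate 12 and 75.1 in replicate 5, all came from females. *Axl* was 1.48-fold higher in amyloid WT mice, a log2 difference of 0.57 (SE 0.07, 95% confidence interval 0.41 to 0.72, adjusted p = 1.88e-07). Tests are two-sided, adjusted p values are from edgeR's quasi-likelihood test over all 21253 genes, and a gene was called when this p was under 0.05 and the log2 difference over 0.25 in size. *Axl* and *Pros1*, 2 of the 5 genes, were called higher in amyloid WT mice, where 6.62% of all tested genes were called higher. None of the 5 was called lower, where 1.33% of tested genes were.

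The same comparison was made in Hom mice. Non-amyloid Hom mice ranged from 44.7 to 51.4 CPM (median 46.5) and amyloid Hom mice from 49.8 to 66.5 CPM (median 54.7). The groups overlapped, with 6 of 10 amyloid Hom mice above every non-amyloid Hom mouse and 10 of 10 above their median. The log2 difference was 0.24 (SE 0.07, 95% confidence interval 0.09 to 0.39, adjusted p = 0.0417), which lay under the fold threshold, so *Axl* was not called. Without amyloid Hom replicate 19 it was 0.24 (adjusted p = 0.0603). It passed the threshold without amyloid Hom replicate 10 (0.25, adjusted p = 0.0321), 33 (0.25, 0.0327), 39 (0.25, 0.0360) or 40 (0.25, 0.0361), or non-amyloid Hom replicate 20 (0.25, 0.0405). Limma-voom also called it (0.26, adjusted p = 0.0175), and the adjusted p ranged from 0.0135 to 0.0908 over all alternatives.

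Within the amyloid cohort *Axl* averaged 55.6 ± 6.03 CPM in Hom mice and 70.6 ± 14.6 CPM in WT mice. All 10 Hom mice were below the WT median, 4 of them were below every WT mouse, and 5 WT mice were above every Hom mouse. The log2 difference was −0.35 (SE 0.10, 95% confidence interval −0.55 to −0.14), with an unadjusted p of 0.00172 and an adjusted p of 0.113, so it was not called. None of the 5 genes was called in this comparison, in which 16 of 21253 genes (0.0753%) were. With sex as a covariate the log2 difference in *Axl* was −0.34 and the adjusted p 0.0497, which was a call, in a fit that called 251 genes (1.18%). Without replicate 19 the log2 difference was −0.34 (adjusted p = 0.189, with 0.0706% of genes called). With sex as a covariate and replicate 19 left out together, it was −0.32 (adjusted p = 0.106). *Axl* was also called by DESeq2 (−0.34, adjusted p = 0.0493), in 1 fit of all 40 libraries (−0.35, adjusted p = 0.00424), and without amyloid WT replicate 13 (−0.39, adjusted p = 0.0472). The adjusted p ranged from 0.00424 to 0.387 over the alternatives, all of which gave a negative difference.

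In the non-amyloid cohort *Axl* was 47.1 ± 2.29 CPM in Hom mice and 47.7 ± 2.06 CPM in WT mice, a log2 difference of −0.02 (95% confidence interval −0.10 to 0.07, adjusted p = 0.979). Whether the genotype difference depends on the cohort was tested over all 40 libraries. For *Axl* this difference of differences was −0.33 in log2 (SE 0.11, 95% confidence interval −0.54 to −0.11, unadjusted p = 0.00343, adjusted p = 0.232) and did not pass. Without replicate 19 it was −0.32 (adjusted p = 0.376). No gene was called in this edgeR test (0%), although 2189 genes had an unadjusted p under 0.05. DESeq2 called 38 genes and limma-voom 0, none of them a TAM receptor or ligand. The comparisons between cohorts and between genotypes share the amyloid WT libraries, so a high *Axl* level in those libraries enters both.

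*Mertk*, a receptor known for engulfment by phagocytes, was called in no comparison. It ranged from 40.3 to 64.3 CPM in non-amyloid WT (median 48.7), from 42.3 to 58.5 in non-amyloid Hom (median 51.2), from 47.0 to 81.7 in amyloid WT (median 55.0) and from 41.1 to 75.0 in amyloid Hom mice (median 55.9). All 4 groups overlapped, and the highest mice were replicate 8, an amyloid WT female, and replicate 40, an amyloid Hom male. Amyloid WT mice were 0.26 higher in log2 than non-amyloid WT mice (95% confidence interval 0.06 to 0.45, adjusted p = 0.0875), and 9 of 10 were above the non-amyloid WT median, but the difference did not pass. It passed without non-amyloid WT replicate 38, the highest of its group (0.31, adjusted p = 0.0329, with a range of 0.0329 to 0.200 over the alternatives). The difference between the genotypes was −0.08 in the amyloid cohort (95% confidence interval −0.29 to 0.14, adjusted p = 0.790) and −0.05 without replicate 19 (adjusted p = 0.884). In the non-amyloid cohort it was 0.06 (adjusted p = 0.965), and the difference of differences was −0.14 (adjusted p = 0.690; −0.12 and 0.771 without replicate 19). Between cohorts Hom mice differed by 0.12 in log2 (adjusted p = 0.451), or 0.14 without replicate 19 (adjusted p = 0.450).

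*Tyro3*, a receptor known from neurons, was called in no comparison. It ranged from 151 to 242 CPM in non-amyloid WT (median 211), from 183 to 249 in non-amyloid Hom (median 230.4), from 143 to 262 in amyloid WT (median 208) and from 166 to 239 CPM in amyloid Hom mice (median 188). All 4 groups overlapped. The lowest values were those of amyloid WT replicate 8 and non-amyloid WT replicate 15. Between the cohorts the log2 difference was −0.01 in WT mice (adjusted p = 0.977) and −0.22 in Hom mice (95% confidence interval −0.38 to −0.06, adjusted p = 0.0914), where 9 of 10 amyloid Hom mice were below the non-amyloid Hom median. The Hom difference became a call without amyloid Hom replicate 25 (−0.26, adjusted p = 0.0365) and was −0.20 (adjusted p = 0.177) without replicate 19, with adjusted p values from 0.0105 to 0.178 over the alternatives. The difference of differences was −0.21 (adjusted p = 0.513), or −0.19 without replicate 19 (adjusted p = 0.661). Hom and WT mice differed by −0.08 in the amyloid cohort (adjusted p = 0.732; −0.06 and 0.852 without replicate 19) and by 0.13 in the non-amyloid cohort (adjusted p = 0.965).

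*Pros1*, which encodes protein S, an anticoagulant cofactor that is also a ligand of Tyro3 and Mertk, was the member with the widest separation between cohorts. Non-amyloid WT mice ranged from 12.97 to 18.4 CPM (median 15.5) and non-amyloid Hom mice from 12.8 to 17.1 CPM (median 14.5). Amyloid WT mice ranged from 21.2 to 37.5 CPM (median 28.01) and amyloid Hom mice from 19.9 to 31.8 CPM (median 22.1). No amyloid mouse overlapped a non-amyloid mouse. Of the 21253 tested genes, 119 (0.560%) had every amyloid mouse above every non-amyloid mouse, *Pros1* among them. It was 1.87-fold higher in WT mice (log2 difference 0.90, SE 0.09, 95% confidence interval 0.72 to 1.08, adjusted p = 1.77e-10). In Hom mice it was 1.65-fold higher (log2 difference 0.72, SE 0.09, 95% confidence interval 0.54 to 0.90, adjusted p = 1.58e-07), and 0.72 in log2 without replicate 19 (adjusted p = 3.71e-07). *Pros1* was the only one of the 5 genes called higher in Hom mice, where 5.71% of tested genes were called higher. None of the 5 was called lower, where 0.856% were. Both *Pros1* calls held in all 40 fits that left out 1 library.

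Between genotypes *Pros1* was lower in amyloid Hom mice by value, 23.7 ± 3.73 against 28.8 ± 5.47 CPM, with 8 of 10 Hom mice below the WT median and 3 WT mice above every Hom mouse. The log2 difference was −0.28 (95% confidence interval −0.50 to −0.06, unadjusted p = 0.0132, adjusted p = 0.306) and was not called. It was −0.28 without replicate 19 (adjusted p = 0.427) and −0.27 with sex as a covariate (adjusted p = 0.0693). With both of these changes it was −0.25 (adjusted p = 0.121), and the adjusted p ranged from 0.0693 to 0.545 over the alternatives. In the non-amyloid cohort the difference was −0.10 (95% confidence interval −0.22 to 0.03, adjusted p = 0.965), and the difference of differences was −0.18 with and without replicate 19 (adjusted p = 0.584 and 0.678). None of the 5 genes was called between non-amyloid Hom and WT mice, where 0.0329% of tested genes were.

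*Gas6*, the ligand that binds all 3 receptors, was called in no comparison. It ranged from 44.4 to 77.4 CPM in non-amyloid WT (median 64.4), 49.4 to 79.7 in non-amyloid Hom (median 68.9), 40.5 to 70.1 in amyloid WT (median 64.7) and 43.7 to 68.2 CPM in amyloid Hom mice (median 61.6). The groups overlapped widely. The log2 difference between cohorts was −0.04 in WT mice (95% confidence interval −0.24 to 0.15, adjusted p = 0.866) and −0.17 in Hom mice (−0.37 to 0.02, adjusted p = 0.266), and −0.18 in Hom mice without replicate 19 (adjusted p = 0.318). All 10 amyloid Hom mice were below the non-amyloid Hom median. Between genotypes it was −0.04 in the amyloid cohort, with and without replicate 19 (adjusted p = 0.880 and 0.908), and 0.09 in the non-amyloid cohort (adjusted p = 0.965), and the difference of differences was −0.13 (adjusted p = 0.697; −0.14 and 0.743 without replicate 19).

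**Figure D2:**
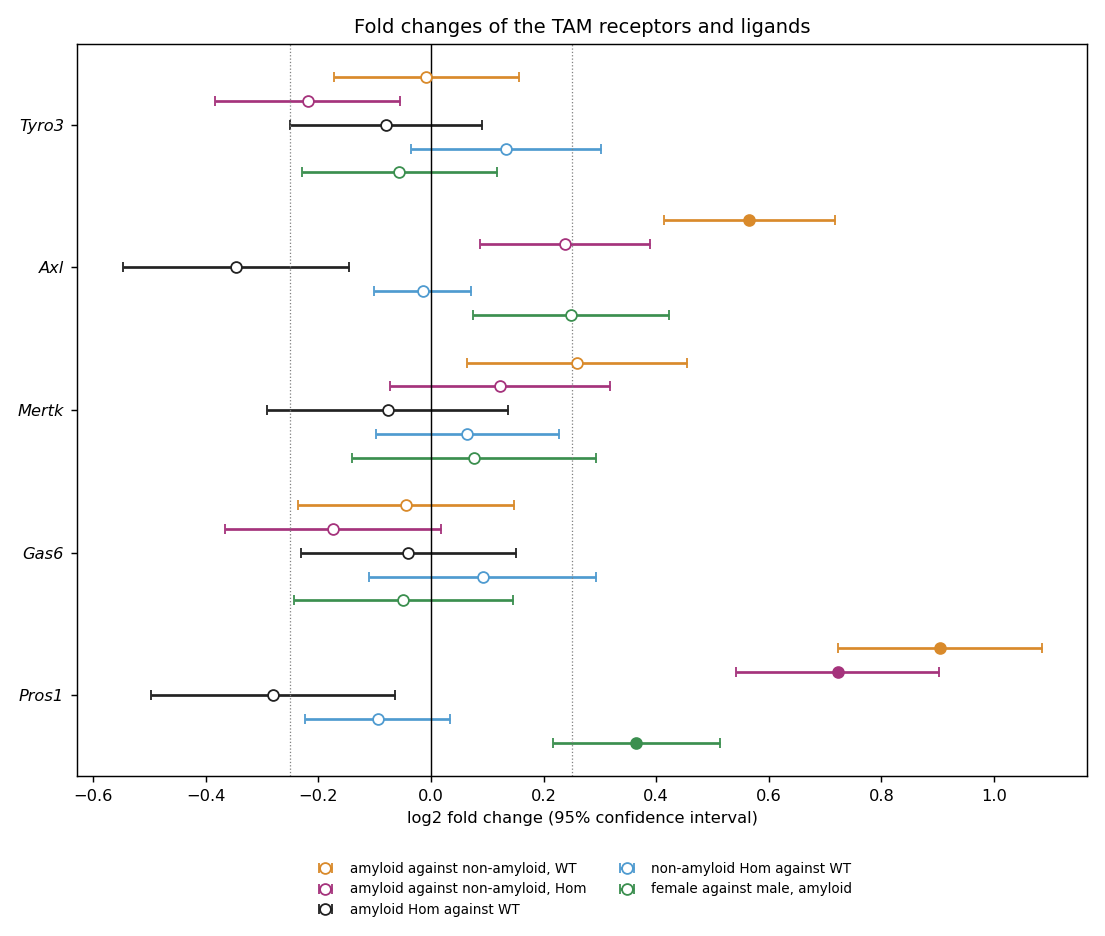
Log2 fold change (horizontal axis) of each gene in 5 comparisons, with 95% confidence intervals from edgeR's quasi-likelihood fit; filled points were called, open points were not, and dotted lines mark the fold threshold of 0.25. Called were *Pros1* between cohorts in WT (0.90) and Hom mice (0.72) and between sexes in the amyloid cohort (0.36), and *Axl* between cohorts in WT mice (0.57).

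Sex was compared within each cohort with genotype as a covariate. *Pros1* was higher in amyloid females. In amyloid WT mice the 5 females were at 27.8 to 37.5 CPM (median 33.2) and the 5 males at 21.2 to 28.2 CPM (median 24.9). In amyloid Hom mice the females were at 21.9 to 31.8 CPM (median 25.1) and the males at 19.9 to 22.2 CPM (median 21.2). In each genotype 4 of 5 females were above every male. The log2 difference was 0.36 (SE 0.07, 95% confidence interval 0.22 to 0.51, adjusted p = 0.0321 by edgeR), a call, and 0.38 without replicate 19 (adjusted p = 0.0195). It was the only call among the 5 genes, where 0.240% of tested genes were called (51 genes). The call held in 8 of 20 fits that left out 1 library, with log2 differences from 0.32 to 0.39. Among amyloid Hom mice it was lost without replicate 3 (adjusted p = 0.0864), 10 (0.0725), 16 (0.0697), 25 (0.0527), 34 (0.0567) or 40 (0.0615). Among amyloid WT mice it was lost without replicate 5 (adjusted p = 0.0585), 12 (0.0526), 13 (0.0827), 22 (0.0946), 27 (0.0726) or 32 (0.0827). Without a filter on low counts it was 0.35 (adjusted p = 0.0591) and not called, and the adjusted p ranged from 0.000742 to 0.0946 over the alternatives.

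*Axl* was higher in amyloid females by 0.25 in log2 (95% confidence interval 0.08 to 0.42, adjusted p = 0.298), which was not called, and by 0.26 without replicate 19 (adjusted p = 0.302). Its females and males overlapped in both genotypes. *Tyro3* (−0.06), *Mertk* (0.08) and *Gas6* (−0.05) had log2 differences near 0, each with an adjusted p over 0.9 in edgeR's test. Without replicate 19 they were −0.05, 0.09 and −0.07, each with an adjusted p of 0.999. Whether the genotype difference itself differed between the sexes of the amyloid cohort was also tested. None of the 5 genes passed, with differences of differences from −0.23 (*Axl*) to −0.05 (*Mertk*), or from −0.21 (*Axl*) to 0.00 (*Mertk*) without replicate 19. No tested gene was called by edgeR (0%), DESeq2 or limma-voom, and 1124 genes had an unadjusted p under 0.05. In the non-amyloid cohort 0 of the 5 genes was called between the sexes, where 0.122% of tested genes were. *Mertk* was there higher in females by 0.19 in log2 (95% confidence interval 0.04 to 0.33, adjusted p = 0.648), and all 5 females of each genotype were above the median of their males.

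Markers of cell types were read beside these results. In whole tissue, fewer cells of a type and less RNA per cell cannot be told apart. Of all tested genes, 6.62% were called higher between cohorts in WT mice and 5.71% in Hom mice. All 15 microglia markers were found, none at 0. Their summed level was 506 ± 55.3 CPM in non-amyloid WT (417 to 584), 498 ± 29.95 in non-amyloid Hom (459 to 560), 1305 ± 323 in amyloid WT (852 to 1846) and 878 ± 174 CPM in amyloid Hom mice (672 to 1167). Between cohorts, 15 of 15 were called higher in WT mice, with a median log2 difference of 1.19 (all genes 0.00), and 13 of 15 in Hom mice, with a median of 0.69 (all genes 0.03). Without replicate 19, 12 of 15 were called in Hom mice, since *P2ry12* was not (0.34, adjusted p = 0.0756). Between amyloid Hom and WT mice none was called, all 15 had negative log2 differences and their median was −0.53 (all genes 0.00), or −0.54 without replicate 19. In the difference of differences between cohorts all 15 were also negative (median −0.51, or −0.52 without replicate 19), with none called. Amyloid WT replicates 32 and 12, the highest in *Axl*, were also the highest in summed microglia markers, and replicate 13, the lowest in *Axl*, was the lowest. The part of these markers in the results for *Axl* and *Pros1* was not tested.

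The list of plaque-associated microglia genes includes *Trem2*. All 15 were found, none at 0, with *Ctsd* the most abundant, and the summed level was 1141 ± 196 CPM in non-amyloid WT, 1124 ± 150 in non-amyloid Hom, 2928 ± 867 in amyloid WT and 1868 ± 317 CPM in amyloid Hom mice. In WT mice 14 of 15 were called higher in the amyloid cohort (median log2 difference 2.54) and in Hom mice 13 of 15 (median 1.70). Between amyloid Hom and WT mice 1 was called lower, *Gpnmb* (−1.61, adjusted p = 0.0330), and the median was −0.87. Without replicate 19 the median was −0.86 and *Gpnmb* was called again (−1.645, adjusted p = 0.0333). In the difference of differences between cohorts all 15 were negative (median −0.79, or −0.75 without replicate 19), with none called. *Trem2* itself was at 10.7 ± 2.13 CPM in non-amyloid WT, 10.4 ± 1.59 in non-amyloid Hom, 62.2 ± 24.4 in amyloid WT and 33.9 ± 10.3 CPM in amyloid Hom mice. Its log2 difference between amyloid genotypes was −0.87 (adjusted p = 0.0763), −0.90 without replicate 19 (adjusted p = 0.0987), and −0.86 with sex as a covariate (adjusted p = 0.00923, a call). In females against males of the amyloid cohort, all 15 microglia markers and all 15 plaque-associated genes had positive log2 differences, with medians of 0.39 and 0.56, and 2 microglia markers were called, *Fcrls* and *Gpr34*. Without replicate 19, *Siglech* (0.43, adjusted p = 0.0496) and *Tyrobp* (0.68, adjusted p = 0.0375) were called as well. In the non-amyloid cohort 14 microglia markers and 13 plaque-associated genes were positive in females against males (medians 0.12 and 0.11), and 14 plaque-associated genes were negative between genotypes (median −0.08), with none called.

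Each member was then set against the mean log2 CPM of the 15 microglia markers in the same library, as a description with no test. For *Axl* the median of this difference was 0.91 in non-amyloid WT and 0.99 in non-amyloid Hom, but 0.25 in amyloid WT and 0.45 in amyloid Hom mice. Relative to the markers, *Axl* was thus lower in the amyloid cohort, although its own CPM was higher. It was also higher in amyloid Hom than in amyloid WT mice, although its own CPM was lower. The mean of the markers itself had medians of 4.63, 4.60, 5.83 and 5.28 in the same order of groups. A gene that changes less than the markers moves in these directions by arithmetic, so they are not particular to *Axl*. For *Pros1* the medians were −0.70, −0.74, −1.09 and −0.75 in the same order of groups. *Mertk* moved from 0.92 and 1.08 in the non-amyloid groups to −0.12 in amyloid WT and 0.37 in amyloid Hom mice. *Gas6* moved from 1.34 and 1.51 to 0.02 and 0.69, and *Tyro3* from 3.07 and 3.25 to 1.89 and 2.37.

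Other marker lists were read in the same way, all found in full and none with a gene at 0. Astrocyte markers (10, most abundant *Slc1a2*) summed to 5262 ± 484 CPM in non-amyloid WT, 5177 ± 252 in non-amyloid Hom, 6663 ± 479 in amyloid WT and 6294 ± 548 CPM in amyloid Hom mice. Of these, 3 of 10 were called higher between cohorts in WT mice (*Gfap*, *Aqp4* and *Aldoc*) and 2 of 10 in Hom mice, with all 10 positive and a median of 0.20 in both (all genes 0.00 and 0.03). In females against males of the amyloid cohort *Gfap* alone of the 10 was called (0.83, adjusted p = 0.0377, or 0.84 and 0.0336 without replicate 19). The list as a whole was divided there, 6 positive and 4 negative with a median of 0.03, or 5 and 5 with a median of 0.01 without replicate 19. In non-amyloid females against males 9 of the 10 were positive (median 0.08), with none called. Neuron markers (8, most abundant *Snap25*) summed to between 8545 and 10422 CPM over the 40 libraries, with none called. Border macrophage markers (9, most abundant *Mrc1*) summed to 10.6 to 26.3 CPM. Of these *Siglec1* was called between cohorts in WT mice and between the sexes in the non-amyloid cohort. Between amyloid Hom and WT mice all 9 had negative log2 differences (median −0.27, or −0.32 without replicate 19). In amyloid females against males all 9 were positive (median 0.26, or 0.31 without replicate 19), and none was called in either comparison. In non-amyloid females against males 8 of the 9 were positive (median 0.31). In the difference of differences between cohorts 8 of the 9 were negative (median −0.37, or −0.355 without replicate 19), with none called. Between cohorts they were divided, with 7 positive and 2 negative in WT mice (median 0.28) and 3 positive and 6 negative in Hom mice (median −0.06, or −0.16 without replicate 19).

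Oligodendrocyte markers (8) summed to 3251 to 5679.9 CPM, with 1 called between cohorts in Hom mice (*Mobp*). All 8 were negative in non-amyloid Hom against WT mice (median −0.05, none called), where all 8 endothelial markers were positive (median 0.05, none called). Endothelial markers (8, most abundant *Flt1*) summed to 170.2 to 255 CPM, with 2 called between cohorts in WT mice (*Cldn5* and *Kdr*). *Kdr* was called in Hom mice without replicate 19 only (0.28, adjusted p = 0.0160), where 4 of the 8 were positive and 4 negative. With replicate 19, 3 were positive and 5 negative (median −0.03). In amyloid females against males all 8 were negative (median −0.12, none called), or 7 of 8 without replicate 19. Mural cell and fibroblast markers (10, most abundant *Rgs5*) summed to 194 to 277 CPM, with none called. Choroid plexus markers (5, most abundant *Ttr*) varied from 7.12 to 671 CPM between libraries and were highest in amyloid Hom replicate 40. Erythroid markers (5, most abundant *Hbb-bs*) varied from 1.26 to 48.97 CPM. Neither list had a called gene, but their markers had the same sign in most comparisons. All 5 choroid plexus markers were positive between cohorts in WT (median 1.18) and Hom mice (1.11, or 0.91 without replicate 19). They were also all positive in Hom against WT mice of the amyloid (0.94, or 0.76 without replicate 19) and the non-amyloid cohort (1.02). In females against males 4 were negative in the amyloid cohort (median −0.25), all 5 without replicate 19 (−0.42), and all 5 in the non-amyloid cohort (−1.06). All 5 erythroid markers were positive between cohorts in WT (median 0.37) and Hom mice (0.48, or 0.57 without replicate 19) and between amyloid genotypes (0.10, or 0.18 without it). They were all negative in females against males of the amyloid (−0.58, or −0.52 without it) and the non-amyloid cohort (−0.40), and divided between non-amyloid genotypes (3 positive, 2 negative). The part of these cells in the members' levels was not tested.

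How the members varied between mice of 1 group was described by the deviations of log2 CPM from the group mean over 40 libraries. These correlations are descriptions without a p, the genes share each library's scaling and depth, and all 10 pairs of members were computed. *Tyro3* and *Gas6* deviated together (Pearson r = 0.75, Spearman rho = 0.65), with r = 0.77 without replicate 19 and 0.63 without the 2 libraries farthest from the median of *Tyro3*. Within groups r was 0.91 in non-amyloid WT, 0.87 in non-amyloid Hom and 0.85 in amyloid WT, but 0.28 in amyloid Hom mice. Amyloid WT replicate 8 and non-amyloid WT replicate 15 were the lowest of their groups in both genes.

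*Axl* and *Pros1* had r = 0.54 over the 40 libraries (rho = 0.38), or 0.34 without the 2 libraries farthest from the median of *Axl*. The relation differed between groups in size and sign, with r = 0.81 in amyloid WT and 0.49 in amyloid Hom mice, −0.53 in non-amyloid WT and −0.14 in non-amyloid Hom mice. *Pros1* ran against both *Tyro3* (r = −0.52, rho = −0.54) and *Gas6* (r = −0.52, rho = −0.48), again with values that differed between groups. With *Tyro3*, r was −0.92 in non-amyloid WT, −0.87 in non-amyloid Hom, −0.26 in amyloid WT and −0.47 in amyloid Hom mice. With *Gas6* it was −0.89, −0.67, −0.14 and −0.78 in the same order. *Mertk* and *Gas6*, a receptor and its ligand, had r = −0.46 (rho = −0.35). The 5 remaining pairs had r between −0.39 and 0.29.

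Each gene was also set against the 10 marker lists and the scaling factor of the library. A list was measured by the mean deviation of its markers, which weighs them equally, and then by the log2 of their summed CPM, which the most abundant markers dominate. By the mean, *Axl* deviated with microglia (r = 0.83, rho = 0.75) and plaque-associated microglia (r = 0.82, rho = 0.67), and by the sum with r = 0.83 and 0.855. In amyloid WT mice the value for the microglia mean was 0.97 and in amyloid Hom mice 0.86, but it was 0.24 in non-amyloid WT and 0.53 in non-amyloid Hom mice. For the mean of plaque-associated microglia it was 0.96, 0.72, −0.18 and 0.48 in the same order, but by the sum it was 0.98, 0.79, 0.66 and 0.66, so in non-amyloid WT mice the sign depended on the measure. *Pros1* deviated with plaque-associated microglia (r = 0.73, rho = 0.68), astrocytes (r = 0.66, rho = 0.63) and microglia (r = 0.64, rho = 0.54). By the sum these were 0.35, 0.61 and 0.72. By the mean, within groups they were higher in the amyloid cohort. In the order non-amyloid WT, non-amyloid Hom, amyloid WT and amyloid Hom, r was −0.03, 0.24, 0.89 and 0.71 for microglia, 0.46, 0.24, 0.89 and 0.72 for plaque-associated microglia and 0.38, 0.13, 0.85 and 0.78 for astrocytes. By the sum, plaque-associated microglia had −0.76 and −0.58 in the non-amyloid groups but 0.80 and 0.59 in the amyloid groups, so the sign was reversed between cohorts.

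*Mertk* deviated little with microglia (r = 0.08, rho = 0.21), more with astrocytes (r = 0.49, rho = 0.46, and 0.68 by the sum), and against the scaling factor of the library (r = −0.66, rho = −0.62). Within groups its r with the astrocyte mean ran from 0.20 (amyloid WT) to 0.78 (non-amyloid WT), and that with the microglia mean from −0.13 (amyloid WT) to 0.66 (non-amyloid Hom). For neurons the sign depended on the measure. By the mean, r was 0.58 for *Gas6* (rho = 0.46) and 0.59 for *Tyro3* (rho = 0.53), but by the sum it was −0.72 for *Gas6* (rho = −0.72) and −0.53 for *Tyro3* (rho = −0.48). It also went from −0.13 to 0.54 for *Mertk* and from −0.42 to 0.27 for *Pros1*, so no relation to neurons can be read from these values. Plaque-associated microglia had r = −0.03 by the mean and 0.44 by the sum with *Gas6*, and −0.08 and 0.36 with *Tyro3*. By the sum, *Gas6* had 0.88 and 0.95 in non-amyloid WT and Hom mice, but 0.39 and −0.31 in amyloid WT and Hom mice. Astrocytes had −0.19 by the mean and −0.63 by the sum with *Gas6*, and −0.25 and −0.50 with *Tyro3*. *Gas6* deviated with the scaling factor (r = 0.58, rho = 0.61). For *Tyro3* the r with this factor was 0.24 and for *Pros1* −0.27, with values that differed between groups. In the order non-amyloid WT, non-amyloid Hom, amyloid WT and amyloid Hom, it was 0.56, 0.48, 0.36 and −0.17 for *Tyro3*. For *Pros1* it was −0.66, −0.17, −0.02 and −0.28. A value that moves with the scaling factor can follow the composition of the library. The part of this factor in the levels of *Mertk*, *Gas6*, *Tyro3* and *Pros1*, and in the correlations between them, was not tested.

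**Figure D3:**
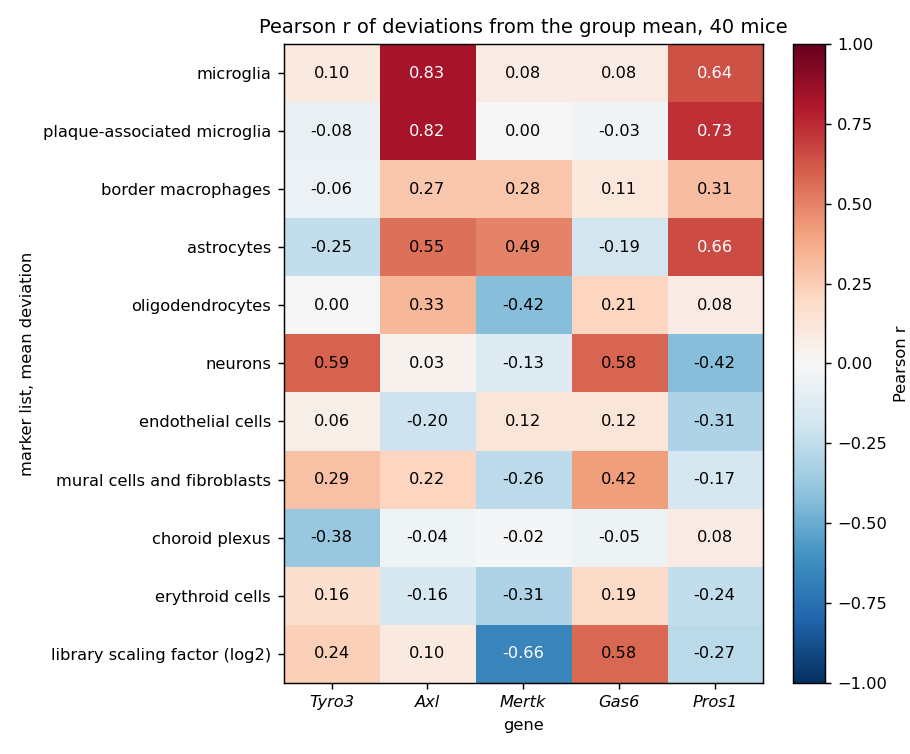
Pearson r (colour and printed value) between each gene's deviation from its group mean (columns) and the mean deviation of each marker list, or the log2 library scaling factor (vertical axis), over 40 mice. *Axl* has its highest values for microglia (0.83) and plaque-associated microglia (0.82) and *Mertk* its lowest for the scaling factor (−0.66). The values for neurons change sign when the summed CPM replaces the mean deviation. Some others do so too, such as those of *Gas6* and *Tyro3* for plaque-associated microglia.

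Among 15197 other genes with a mean of at least 1 CPM, the 5 most alike were found for each member by the same r over 40 libraries. For *Axl* they were *Lgals3bp* (r = 0.89, rho = 0.77, 0.89 without replicate 19), *Npc2* (0.88, 0.72, 0.88), *H2-K1* (0.87, 0.74, 0.88), *H2-D1* (0.87, 0.74, 0.87) and *Psmb8* (0.86, 0.77, 0.88). *Lgals3bp* reached r = 0.98 with *Axl* in amyloid WT mice. In non-amyloid Hom mice the r of these 5 genes with *Axl* was 0.31, 0.02, 0.11, 0.34 and 0.16 in the order given. For *Pros1* they included *Pdpn* (r = 0.87, rho = 0.83, 0.88 without replicate 19), *Ctsc* (0.87, 0.86, 0.87), *Havcr2* (0.86, 0.80, 0.86) and *Cd84* (0.86, 0.84, 0.86). For *Mertk* they were *Sult1a1* (r = 0.82, rho = 0.78, 0.82 without replicate 19), *Ak3* (0.77, 0.71, 0.80), *Crot* (0.77, 0.75, 0.77), *Gjb6* (0.76, 0.68, 0.76) and *Hif3a* (0.76, 0.78, 0.76). *Gjb6* is also in the astrocyte list.

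For *Gas6* they were *Sh3glb2* (r = 0.96, rho = 0.89, 0.96 without replicate 19), *Akt1* (0.95, 0.90, 0.96), *Abtb1* (0.95, 0.88, 0.95), *Rnf208* (0.95, 0.92, 0.96) and *Os9* (0.95, 0.90, 0.95). For *Tyro3* they were *Actn4* (r = 0.93, rho = 0.88, 0.93 without replicate 19), *Pacsin1* (0.93, 0.90, 0.93), *Hid1* (0.92, 0.86, 0.92), *Grin1* (0.90, 0.80, 0.90) and *Med24* (0.90, 0.82, 0.90). Within the 4 groups, the r of *Gas6* with its 5 genes was at least 0.899 (*Akt1* in amyloid Hom mice).

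Other genes of the pathway were read from lists of names. For maturation and shedding, 6 genes were tested, among them *Vkorc1*, part of the vitamin K cycle that both ligands need, and *Adam17*, a metalloprotease that sheds receptor domains. In WT mice 2 of 6 were called higher in the amyloid cohort, where 6.62% of all tested genes were. *Vkorc1* was at 7.54 ± 0.866 CPM in non-amyloid and 9.84 ± 1.34 CPM in amyloid mice (log2 difference 0.38, SE 0.08, adjusted p = 0.000440), and *Adam17* at 19.8 ± 1.65 and 24.5 ± 3.22 CPM (0.31, SE 0.06, adjusted p = 0.000695). In Hom mice *Adam17* alone was called (0.26, adjusted p = 0.00813), and without replicate 19 it was not (0.24, adjusted p = 0.0206). Of all tested genes, 5.71% were called higher in Hom mice. The medians of the list were 0.18 and 0.08, beside 0.00 and 0.03 for all genes. None was called between genotypes, where *Vkorc1* had the lowest p in the amyloid cohort (−0.24, adjusted p = 0.308, or −0.185 and 0.445 without replicate 19).

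Of the 3 further proteins described as TAM ligands, 2 passed the filter. *Lgals3*, a secreted galectin, was at 0.389 ± 0.190 CPM in non-amyloid WT and 1.61 ± 1.12 CPM in amyloid WT mice (log2 difference 2.04, SE 0.29, adjusted p = 6.84e-07) and was also called in Hom mice (1.101, adjusted p = 0.00978, or 1.05 and 0.0229 without replicate 19). *Tub* was not called in any of the 8 comparisons. Between amyloid genotypes *Lgals3* had a log2 difference of −0.82 (adjusted p = 0.286), or −0.87 without replicate 19 (adjusted p = 0.328).

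Of 15 signalling partners, 4 were called higher between cohorts in WT mice and 2 in Hom mice, beside 6.62% and 5.71% of tested genes. The list medians were 0.09 and 0.04, beside 0.00 and 0.03 for all genes. *Vav1*, an exchange factor for Rac in blood-derived and microglial cells, went from 3.24 ± 0.466 to 9.004 ± 2.78 CPM in WT mice (log2 difference 1.47, SE 0.13, adjusted p = 4.70e-12). In Hom mice it was higher by 0.82 (adjusted p = 1.04e-05), or 0.81 without replicate 19 (adjusted p = 2.54e-05). *Plcg2* was higher by 1.11 in WT (adjusted p = 3.81e-10) and 0.53 in Hom mice (adjusted p = 0.00151, or 0.00255 without replicate 19). *Socs3*, a suppressor of cytokine signalling, was called in WT mice (0.50, adjusted p = 0.0270). None of the 15 was called between genotypes or sexes. *Vav1* had the lowest p in the amyloid cohort for both (−0.60, adjusted p = 0.0798 for Hom against WT, and 0.46, adjusted p = 0.0902 for females against males). Without replicate 19 these were −0.61 (0.119) and 0.46 (0.0916).

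Of 7 genes that expose or withdraw phosphatidylserine, none was called in any comparison. *Ano6*, a scramblase, had the lowest p of the list between cohorts in WT mice (log2 difference 0.17, adjusted p = 0.0429, under the fold threshold), and *Xkr8* in Hom mice (0.18, adjusted p = 0.125, or 0.21 and 0.110 without replicate 19). Of 15 genes for other recognition of phosphatidylserine and engulfment, 14 were tested. Between cohorts, 5 were called higher in WT mice and 3 in Hom mice, beside 6.62% and 5.71% of tested genes. The list medians were 0.20 and 0.17, beside 0.00 and 0.03 for all genes. *Itgb5*, an integrin subunit, went from 27.6 ± 5.01 to 62.7 ± 16.8 CPM in WT mice (log2 difference 1.19, adjusted p = 4.75e-10). In Hom mice it was higher by 0.63 (adjusted p = 0.000406, or 0.000816 without replicate 19). *Cd300lf*, a receptor for phosphatidylserine, went from 0.0788 ± 0.0622 to 1.01 ± 0.556 CPM in WT mice (3.64, adjusted p = 1.23e-08), and *Abca1*, a lipid exporter, from 55.6 ± 6.88 to 81.5 ± 18.99 CPM (0.55, adjusted p = 5.23e-05). *Itgb3* (0.46, adjusted p = 0.00558) was called in WT mice as well, and so was *Stab1* (0.42, adjusted p = 0.0183), which is named here because it completes the count. Between amyloid genotypes the lowest p was that of *Itgb5* (−0.58, adjusted p = 0.0591, or 0.0853 without replicate 19), and none of the 14 was called.

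For 6 nuclear receptors and factors linked to *Mertk* expression, the medians between cohorts were 0.04 in WT and −0.11 in Hom mice, beside 0.00 and 0.03 for all genes. Of the 6, 2 were called higher in WT mice and 1 in Hom mice, beside 6.62% and 5.71% of tested genes. *Nr1h3*, a liver X receptor, was called in WT mice (0.43, adjusted p = 0.0373). All 6 had negative log2 differences between amyloid Hom and WT mice, with a median of −0.18 (all genes 0.00), or −0.14 without replicate 19, and none was called. No gene of the pathway lists was called in the test of the genotype difference between cohorts. Leaving out replicate 19 changed the calls of 1 pathway gene, *Adam17*.

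The starts of *Axl* and *Pros1* are shown because these were the members called between cohorts. Both are the 250 bases before the RefSeq start on GRCm38.p6, from chr7:25788734-25788983 on the minus strand and chr16:62854057-62854306 on the plus strand, and all 5 members were matched by symbol in the RefSeq table. The windows lie just outside the deposited spans of their own genes. Capitals mark GGGCGG or its reverse CCGCCC, the GC box bound by SP1, which occurs in 32.7% of 32851 windows of the same kind.
Axl: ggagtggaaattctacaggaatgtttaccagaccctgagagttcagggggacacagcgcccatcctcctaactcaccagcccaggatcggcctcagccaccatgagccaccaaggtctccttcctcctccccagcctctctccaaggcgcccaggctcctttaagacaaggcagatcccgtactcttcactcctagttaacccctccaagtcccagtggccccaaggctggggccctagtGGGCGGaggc
Pros1: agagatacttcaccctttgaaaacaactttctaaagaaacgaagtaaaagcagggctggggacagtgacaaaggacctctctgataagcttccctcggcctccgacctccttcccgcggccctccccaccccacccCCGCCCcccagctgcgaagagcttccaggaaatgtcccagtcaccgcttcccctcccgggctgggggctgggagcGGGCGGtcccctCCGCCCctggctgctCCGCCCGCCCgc
GC content was 60.0% for *Axl* and 64.4% for *Pros1*, beside a median of 52.4% over all windows. *Axl* held 5 CG dinucleotides and *Pros1* 15. *Axl* held 1 GC box and *Pros1* 5, of which the last pair overlap. Neither window held CCAAT (33.8% of windows), TATAAA (12.4%), TGANTCA (6.75%), GAGGAAGT (2.44%) or the core of the interferon-stimulated response element (2.98%), each searched on both strands. These letters are a description of the windows, and no measurement here tested binding.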

How the data were processed

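Cortical RNA of 40 mice was sequenced from poly-A libraries, 1 per mouse. The authors deposited raw counts per gene, whole numbers without normalization. The paper's methods name MAP-RSeq with TopHat and featureCounts on mm10, whereas the submitters' processing notes name STAR 2.5.2b, featureCounts 1.5.1 and edgeR on mm10. Which of these made the counts, and with which strand setting, is not given in the sources used here. The paper's methods left out 1 amyloid Hom female, without a replicate number, because few of its reads were counted in genes and because of its strand check. Replicate 19, an amyloid Hom female, has the lowest total and 0.299% of its counts on genes under a far more abundant opposite-strand gene (0.0141% to 0.0186% in the other 39 libraries), so it may be that library. It was kept, as were all 10, and the report gives values without it.

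Total counts ranged from 41646271 to 105903846 per library. The filter (10 counts or more in 4 libraries or more) kept 21253 of 43346 genes, and 9666 genes had no count. Counts were scaled by TMM and tested with edgeR 4.0.16 (quasi-likelihood, two-sided) in R 4.3.3. Genotypes were compared within a cohort without covariates, sexes with genotype as a covariate, and cohorts and their interaction with genotype in 1 fit of 40 libraries. A call needed a Benjamini-Hochberg adjusted p under 0.05 and a log2 fold change over 0.25 in size. CPM, log2 CPM (prior count 2) and CPM per kb of the deposited exon length were computed from the deposited counts. Alternatives used DESeq2 1.42.0 and limma 3.58.1, other scalings and filters, sex as a covariate, and each library left out. The alternative with sex as a covariate and amyloid Hom replicate 19 left out together was chosen after seeing the data. The correlations with the summed CPM of marker lists were also added after seeing the data. Descriptions used Python 3.11.15 with pandas 2.3.3, NumPy 2.4.6, SciPy 1.17.1 and matplotlib 3.10.9. The test was tried on simulated counts.

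Named were the 5 members and *Trem2*, from each of 6 pathway lists the called genes (at most 4, by lowest p) or else the gene with the lowest p, and the 5 genes most like each member. Genes of the 10 marker lists were named where their list is described. All 145 list genes were matched through a table of symbols and gene IDs. The members and the lists were chosen with earlier results of these data known. Results for some genes of these lists are not reported here.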

Additional observations from a re-analysis of the deposited data

How the results depend on the processing

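Over all alternatives, 1420 of the members' recomputed differences kept their direction and their side of the threshold, 13 passed it, 13 no longer passed it and 34 changed sign. Of the recomputed counts of called genes, 237 stayed within 1.5 times the reported count and 59 did not. The cause was not tested. No paired analysis was made, because the labels used here give no litter or pair. The paper bred its genotypes as littermates, so any effect of litter was not taken into account. Low counts limit genes such as *Cd300lf* more than the members, whose lowest count was 802.

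Between amyloid Hom and WT mice, *Axl* passed with DESeq2 (−0.34), sex as a covariate (−0.34) and all 40 libraries in 1 fit (−0.35), and with each library left out it ranged from −0.39 to −0.27. *Gas6* ranged from −0.093 to 0.0007. The 16 called genes became 303 with DESeq2, 25 with limma-voom, 9 without a filter, 66 with filterByExpr, 251 with sex as a covariate, 612 with all 40 libraries, 200 with sex as a covariate and replicate 19 left out, and 6 to 204 with each library left out. Between non-amyloid Hom and WT mice the 7 called genes became 11 with DESeq2 and 4 to 8 with each library left out.

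Between amyloid females and males, *Pros1* was 0.35 without a filter and 0.32 to 0.39 with each library left out, and *Gas6* −0.085 to 0.0028. The 51 called genes became 257 with DESeq2, 113 with limma-voom, 26 without a filter and 19 to 116 with each library left out. In the interaction of genotype with sex, *Mertk* was 0.18 by limma-voom and −0.15 to 0.088 with each library left out, and the 0 called genes became 0 to 1. Between non-amyloid females and males, *Tyro3* was 0.035 by limma-voom, 0.0020 with upper-quartile scaling and −0.042 to 0.042 with each library left out. *Pros1* was 0.0051 with upper-quartile scaling and −0.032 to 0.022 with each library left out, and the 26 called genes became 48 with DESeq2.

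In the interaction of genotype with cohort, the 0 called genes became 38 with DESeq2, 12 with sex as a covariate, 6 with sex as a covariate and replicate 19 left out, and 0 to 22 with each library left out. Between cohorts in WT mice, with each library left out, *Tyro3* was −0.054 to 0.039, *Mertk* 0.20 to 0.31 and *Gas6* −0.091 to 0.0081. Between cohorts in Hom mice, *Axl* passed with limma-voom (0.26) and with adjusted p alone (0.24), and ranged from 0.21 to 0.25 with each library left out, and *Tyro3* from −0.26 to −0.20.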
